A study of Mus musculus with 6 samples.

Results

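The secreted bone morphogenetic proteins (BMPs), the receptors that bind them and the proteins that trap them were followed here through 9 genes, which are the ligands Bmp2, Bmp4 and Bmp6, the receptors Bmpr1a, Bmpr2 and Acvr1, and the antagonists Grem1, Nog and Chrdl1. They were chosen by name, with earlier results of these data known, as the rows of the expression matrix with these gene symbols. They make up 9 of 39179 listed genes. RNA had been sequenced from Ocy454, a mouse osteocytic cell line used as 1 single-cell subclone, after growth to confluency at 33 °C and 14 days at 37 °C. Cells received vehicle (given as phosphate-buffered saline with hydrochloric acid in the labels, whereas the study names DMSO as the solvent of compounds used on cells), 1 nM parathyroid hormone (PTH 1-34, the amino-terminal fragment) or 0.5 µM YKL-05-093, a compound that inhibits the salt-inducible kinases, for 4 h. Each condition had 2 libraries, and since the labels do not say whether these came from separate cultures, the p-values measure the spread between libraries only. The comparisons ask how far each treatment, and each treatment against the other, moved the RNA of the BMP system.

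BMPs are secreted dimers of the transforming growth factor beta superfamily, known for their ability to induce cartilage and bone. A ligand brings together type I receptors, such as the products of Bmpr1a and Acvr1, and type II receptors, such as the product of Bmpr2, whose kinase activity leads to phosphorylation of receptor-regulated SMAD proteins, entry of these into the nucleus with SMAD4 and transcription of targets such as the Id genes. Gremlin 1, noggin and chordin-like 1 (products of Grem1, Nog and Chrdl1) are secreted proteins that bind BMPs outside the cell and keep them from their receptors.

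Library totals ranged from 17505798 to 27983585 reads, as recovered from the deposited RPKM (reads scaled to gene length and library total). The vehicle pair was the least alike, with a median absolute log2 difference between replicates of 0.333, against 0.108 for PTH and 0.103 for YKL-05-093. Of the osteocyte markers, Sost had at most 3 reads, Mepe at most 4 and Fgf23 at most 2 in any library, and Dmp1 averaged 0.899 ± 0.362 RPKM in vehicle (SD, n = 2). The cells were therefore low in Sost, Mepe, Fgf23 and Dmp1 at the RNA level. Of the 6 osteocyte markers, Dmp1, Phex and Pdpn passed the filter on low values. Phex had 1.82 and 0.764 RPKM in vehicle, 4.93 and 1.91 with PTH and 2.72 and 4.80 with YKL-05-093. Pdpn was well expressed, at 53.1 and 71.3 RPKM in vehicle. All 8 osteoblast markers were above the filter, with summed levels between 1005 and 1530 RPKM. Summed markers of other cell types were low, and of 5 genes each, 1 fat, 2 cartilage, 0 muscle, 1 blood and 1 endothelial marker passed the filter. The sums were between 1.10 and 2.32 RPKM for fat cells, 1.74 and 3.43 for cartilage, 0.204 and 0.301 for muscle, 3.83 and 4.51 for blood cells and 0.724 and 2.19 for endothelium. Lep, Cidec, Myod1, Ckm and Cdh5 were listed at 0 in all 6 libraries. The summed osteocyte markers moved with treatment (55.7 to 73.3 RPKM in vehicle, 165 to 176 with PTH, 98.4 to 99.1 with YKL-05-093), carried by Pdpn. The cartilage sum was 1.74 to 2.33 RPKM in vehicle, 3.11 to 3.18 with PTH and 3.13 to 3.43 with YKL-05-093, and the endothelial sum 0.724 to 1.14, 1.14 to 1.45 and 1.96 to 2.19. The part of these shifts in the results on the BMP genes was not tested.

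In vehicle-treated cells, Bmpr1a was the most abundant of the 9 genes at 28.0 ± 7.94 RPKM, followed by Bmp4 (12.1 ± 0.841), Bmpr2 (11.2 ± 5.89), Bmp2 (7.33 ± 0.638), Grem1 (5.21 ± 0.521), Acvr1 (2.80 ± 0.150) and Bmp6 (0.566 ± 0.0613). Nog and Chrdl1 closed the order with 2 to 10 reads per library. The neighbouring pairs Bmp4 and Bmpr2, and Bmpr2 and Bmp2, overlapped between the 2 vehicle libraries, and the other neighbours did not. With PTH the order was Bmpr1a, Bmp4, Bmpr2, Grem1, Bmp2, Acvr1 and Bmp6, with overlap between Bmp2 and Acvr1, so Grem1 now stood above Bmp2. With YKL-05-093 the order was Bmpr1a, Bmpr2, Bmp4, Grem1, Bmp2, Acvr1 and Bmp6, and no neighbours among these overlapped. The place of Bmpr2 depends on the gene length, since the length behind its RPKM is 3542 bases and its merged exons in the GENCODE M21 annotation span 17983 bases. The lengths of Bmp4 (3225 and 2248 bases) and Bmp6 (2403 and 3900 bases) also differ between the sources, whereas those of Bmp2, Bmpr1a, Acvr1 and Grem1 are close to each other.

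**Figure D1:**
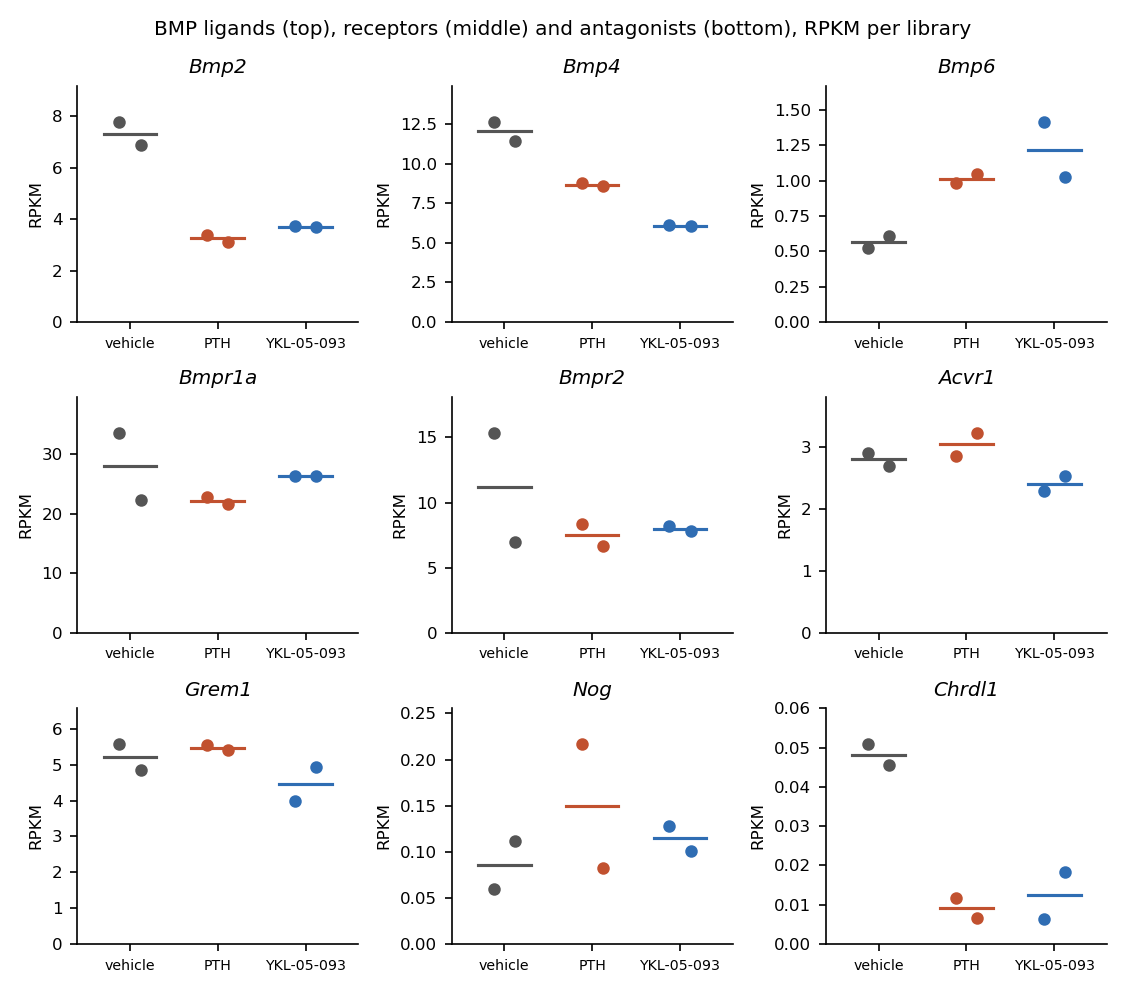
RPKM (vertical axes, linear and starting at 0) of the 9 genes in each of the 6 libraries, by condition. Points are libraries and bars are means of 2 libraries. Bmp2 and Bmp4 are lower and Bmp6 higher in all 4 treated libraries than in both vehicle libraries, the vehicle points of Bmpr1a and Bmpr2 lie far apart, and Nog and Chrdl1 stay under 0.25 RPKM.

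The start of the gene was read from RefSeq (GRCm38.p6), as the 250 bases before and 50 after the transcription start, for 6 of the 9 genes. Bmp2, Nog and Chrdl1 were not matched. The windows of the ligands Bmp4 (chr14:46390620-46390919, minus strand) and Bmp6 (chr13:38345466-38345765, plus strand), whose levels lay on opposite sides of vehicle, and of the antagonist Grem1 (chr2:113758599-113758898, minus strand) are shown 5′ to 3′, with any searched motif in capitals.
Bmp4: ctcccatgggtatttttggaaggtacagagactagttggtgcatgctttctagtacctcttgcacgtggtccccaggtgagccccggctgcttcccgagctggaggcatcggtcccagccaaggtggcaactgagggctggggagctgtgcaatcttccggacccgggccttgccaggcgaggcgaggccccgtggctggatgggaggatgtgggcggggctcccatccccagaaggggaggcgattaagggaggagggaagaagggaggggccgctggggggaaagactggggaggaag
Bmp6: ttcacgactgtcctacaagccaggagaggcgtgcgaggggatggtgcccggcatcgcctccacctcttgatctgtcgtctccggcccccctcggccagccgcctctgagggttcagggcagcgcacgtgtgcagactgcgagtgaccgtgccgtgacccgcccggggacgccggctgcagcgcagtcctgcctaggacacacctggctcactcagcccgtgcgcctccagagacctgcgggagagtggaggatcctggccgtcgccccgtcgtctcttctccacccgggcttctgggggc
Grem1: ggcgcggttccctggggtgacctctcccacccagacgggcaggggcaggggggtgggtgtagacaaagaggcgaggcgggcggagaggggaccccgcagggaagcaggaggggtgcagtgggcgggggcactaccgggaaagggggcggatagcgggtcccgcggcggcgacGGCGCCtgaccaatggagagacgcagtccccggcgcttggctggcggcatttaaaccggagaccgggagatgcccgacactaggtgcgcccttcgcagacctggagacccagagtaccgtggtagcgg

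Searched on both strands were TGACGTCA, the cAMP response element bound by CREB proteins, its half-site TGACG, which the full element contains, and GGCGCC, a motif bound by BMP-activated SMADs. No searched motif was in the windows of Bmp4, Bmp6 or Acvr1. GGCGCC occurred 78 bases before the start of Grem1, 105 before that of Bmpr2 and 198 before that of Bmpr1a. Over 32851 windows of the same length, GGCGCC was present in 11.9%, TGACG in 20.8% and TGACGTCA in 1.79%. These matches describe letters in the windows and are not binding measurements.

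Of the 9 genes, 7 reached 0.5 RPKM in 2 or more libraries and entered the test (limma on log2(RPKM + 0.1), with a gene called where its Benjamini-Hochberg adjusted p was under 0.05 and its level differed more than 2-fold). Fold changes are on this scale, which understates changes of low genes such as Bmp6. With PTH, 1 of the 7 tested members was called, against 1.91% of all 14261 genes tested, and Bmp2 was that gene (0.813% of all genes were called lower and 1.09% higher). With YKL-05-093, 0 of 7 were called, against 0.666% of 14255 genes (0.393% higher and 0.274% lower). In that comparison limma gave 3 of the 7 an unadjusted p under 0.05, beside 8.66% of all genes. With PTH against vehicle, 1 member was higher and 2 lower at this unadjusted limit (13.3% of all genes). For PTH against YKL-05-093, 3 were higher and 1 lower (22.3%). An alternative with voom on the recovered reads also called 0 with YKL-05-093. Between PTH and YKL-05-093, 0 of 7 passed both limits, against 1.21% of 14255 genes (0.737% higher with PTH and 0.470% lower), while Bmp4 and Bmpr1a passed the adjusted p alone, as did 10.0% of all genes. The 2 libraries of each group did not overlap for 3 of 7 members with PTH against vehicle (43.1% of all genes), for 4 of 7 with YKL-05-093 against vehicle (37.8%) and for 5 of 7 between the treatments (50%). The median log2 fold change of the 7 was -0.30 for PTH, -0.22 for YKL-05-093 and -0.10 for PTH against YKL-05-093, beside -0.03, -0.04 and 0.01 over all genes. The vehicle libraries serve in both comparisons with vehicle, so these are set side by side and not combined. The smallest two-sided p that exact permutation of 2 against 2 libraries allows is 0.333, so the adjusted p-values depend on the spread that limma shares over genes. In bulk RNA, fewer cells that express a gene and less RNA per cell cannot be told apart.

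Among the ligands, Bmp2 was the member with the largest drop after PTH. Bmp2 (ENSMUSG00000027358, chr2:133552159-133562885, plus strand) encodes a ligand known for bone induction. Its levels were 7.78 and 6.88 RPKM in the vehicle libraries (484 and 684 reads), 3.39 and 3.11 with PTH (260 and 211 reads) and 3.73 and 3.69 with YKL-05-093 (269 and 272 reads). Both vehicle libraries were high and all 4 treated libraries low, without overlap. Bmp2 fell by 1.15 on the log2 scale with PTH, or by 54.9% (SE of the log2 change 0.16, 95% interval -1.53 to -0.77, limma adjusted p = 0.0166). The call was lost with a pseudocount of 1 RPKM (log2 change -0.97) and without the filter on low values (limma adjusted p = 0.0917). It was also lost without PTH replicate 1 or 2, at log2 changes of -1.21 and -1.09. The lowest limma adjusted p, 1.98e-05, came with a replicate block, and whether the replicate numbers pair the libraries is not known.

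With YKL-05-093, the log2 fold change of Bmp2 was -0.96 (SE 0.16, 95% interval -1.34 to -0.58), which did not pass (limma adjusted p = 0.0662, 0.00642 to 1.00 over the alternatives). The direct comparison gave -0.19 for PTH against YKL-05-093 (95% interval -0.42 to 0.05, limma adjusted p = 0.361). The difference between the treatments in Bmp2 was thus not detected, and the interval leaves room for a level up to 0.42 log2 units lower with PTH. Being called with PTH and not with YKL-05-093 therefore does not show that Bmp2 responded differently to the treatments.

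Bmp4, a ligand closely related to Bmp2, was lower with YKL-05-093 than with PTH. Bmp4 (ENSMUSG00000021835, chr14:46383520-46390669, minus strand) had 12.6 and 11.5 RPKM in vehicle (714 and 1034 reads), 8.78 and 8.57 with PTH (612 and 527 reads) and 6.14 and 6.04 with YKL-05-093 (402 and 404 reads). The 3 conditions formed separate steps, with vehicle highest, PTH between and YKL-05-093 lowest. The log2 fold change was -0.47 for PTH (SE 0.16, 95% interval -0.84 to -0.10, limma adjusted p = 0.250) and -0.97 for YKL-05-093 (SE 0.16, 95% interval -1.34 to -0.60, limma adjusted p = 0.0582), and neither passed.

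Directly compared, Bmp4 was higher with PTH than with YKL-05-093 by 0.50 on the log2 scale (SE 0.087, 95% interval 0.32 to 0.69, limma adjusted p = 0.000918), short of 2-fold. This adjusted p rose to 0.157 in 1 fit of all 6 libraries, which includes the wider spread of the vehicle pair, to 0.0517 without the filter on low values, and to between 0.0653 and 0.193 when 1 library was left out, while the difference stayed between 0.45 and 0.52 in all alternatives. Exons of Gm15217 overlap Bmp4 on the opposite strand. The libraries were directional, but whether the counting used the strand is not given in the sources used here.

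Bmp6, a ligand of another subgroup that in the liver regulates hepcidin, was the least abundant of the 3 and the one with higher levels after treatment. Bmp6 (ENSMUSG00000039004, chr13:38345107-38500302, plus strand) had 0.523 and 0.610 RPKM in vehicle (22 and 41 reads), 0.982 and 1.05 with PTH (51 and 48 reads) and 1.42 and 1.02 with YKL-05-093 (69 and 51 reads). Each treated library was above both vehicle libraries, and the YKL-05-093 pair was the widest. The log2 fold changes of 0.74 for PTH (SE 0.25, 95% interval 0.17 to 1.32, limma adjusted p = 0.241) and 0.97 for YKL-05-093 (SE 0.27, 95% interval 0.34 to 1.61, limma adjusted p = 0.269) did not pass. The 2 treatments differed by -0.23 (limma adjusted p = 0.625), which did not pass either. Exons of Txndc5 overlap Bmp6 on the opposite strand. Reads of Bmp6 are few, and its changes are the least precise among the ligands.

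**Figure D2:**
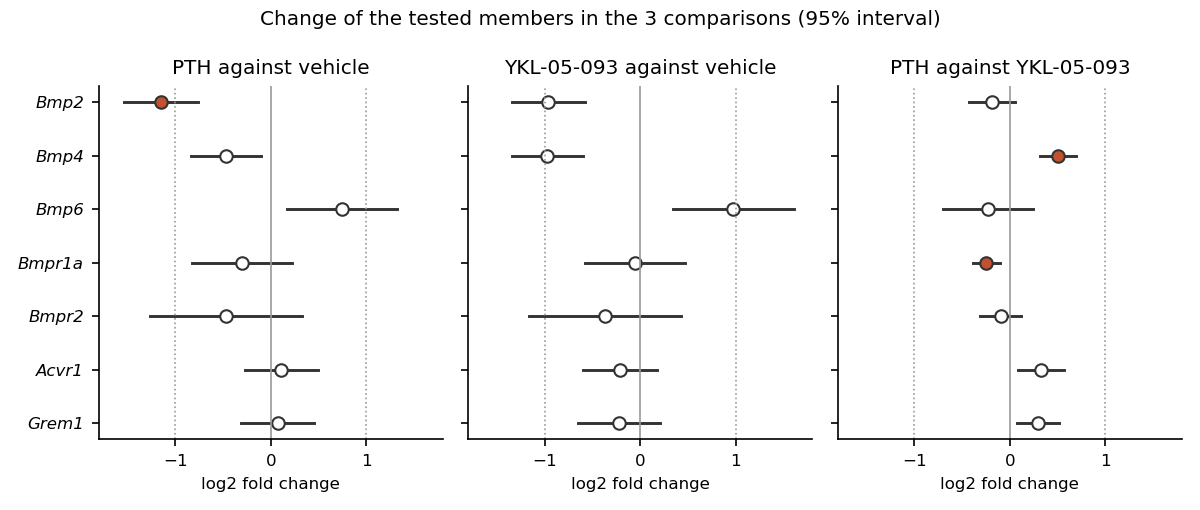
Log2 fold change (horizontal axis) of the 7 tested genes in the 3 comparisons, from limma on log2(RPKM + 0.1). Lines are 95% intervals, filled points have an adjusted p under 0.05, and dotted lines mark 2-fold. Bmp2 with PTH is the only filled point beyond 2-fold, and Bmp4 and Bmpr1a are filled between the treatments at 0.50 and -0.25.

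Added together, Bmp2, Bmp4 and Bmp6 gave 20.95 and 18.95 RPKM in vehicle, 13.2 and 12.7 with PTH and 11.3 and 10.8 with YKL-05-093. The percent difference of the mean sum from vehicle was -35.1% with PTH and -44.7% with YKL-05-093, and the libraries of the 3 conditions did not overlap. The makeup of the sum differed as well. The ratio of Bmp4 to Bmp2 was 1.62 and 1.66 in vehicle and 1.65 and 1.64 with YKL-05-093, but 2.59 and 2.75 with PTH. The share of Bmp6 was 2.50% and 3.22% in vehicle, 7.47% and 8.23% with PTH, and 12.5% and 9.51% with YKL-05-093. The summed ligands stood to Grem1 as 3.76 and 3.91 to 1 in vehicle, 2.37 and 2.36 with PTH, and 2.83 and 2.18 with YKL-05-093. These sums and ratios were formed after the values of the genes were known and are given as descriptions. Their size depends on the gene lengths behind the RPKM. For Bmp4 (3225 and 2248 bases) and Bmp6 (2403 and 3900 bases) these differ from the merged exons of GENCODE M21. The 3 ligands held between 86.3% and 95.3% of the summed RPKM of all listed BMP ligands in each library.

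**Figure D3:**
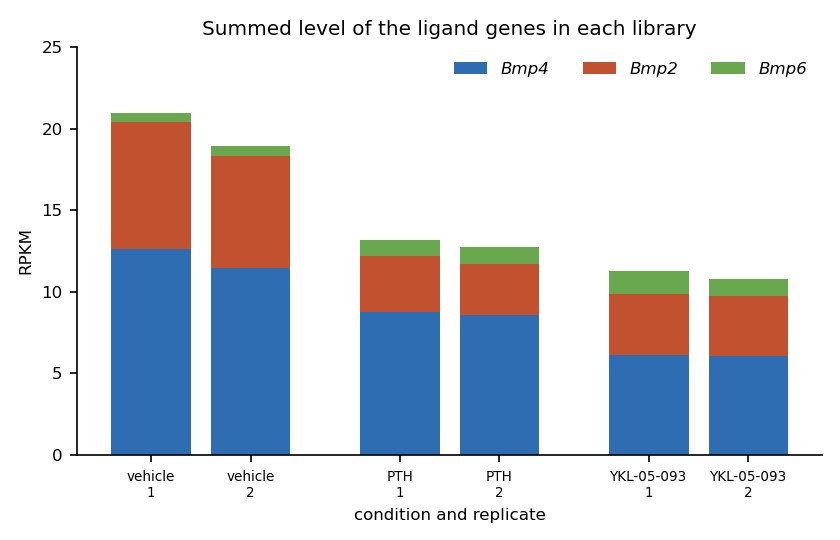
Summed RPKM (vertical axis, linear from 0) of Bmp4, Bmp2 and Bmp6 in each library, stacked. The 2 vehicle libraries reach 20.95 and 18.95 RPKM, the PTH libraries 13.2 and 12.7 and the YKL-05-093 libraries 11.3 and 10.8. The Bmp2 segment is smallest with PTH and the Bmp4 segment smallest with YKL-05-093.

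No receptor gene was called in any comparison. Bmpr1a (ENSMUSG00000021796, chr14:34410734-34503341, minus strand) encodes a type I receptor for BMP2 and BMP4. It had 33.6 and 22.4 RPKM in vehicle, 22.8 and 21.6 with PTH and 26.4 and 26.4 with YKL-05-093. Vehicle replicate 1 stood apart, and vehicle replicate 2 was within the range of the PTH libraries. The log2 fold change was -0.30 for PTH (SE 0.22, limma adjusted p = 0.667) and -0.05 for YKL-05-093 (SE 0.22, limma adjusted p = 0.972). Without vehicle replicate 1 the latter turned to 0.24. The tight treated pairs gave a direct difference of -0.25 (SE 0.065, 95% interval -0.39 to -0.11, limma adjusted p = 0.0227), so Bmpr1a was lower with PTH than with YKL-05-093 at less than 2-fold. This adjusted p was 0.950 in 1 fit of all 6 libraries, 0.153 without the filter, 0.110 with the variance trend on the mean value and 0.201 to 0.289 when 1 library was left out. Exons of Gm17110 overlap Bmpr1a on the opposite strand.

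Bmpr2 (ENSMUSG00000067336, chr1:59763400-59879014, plus strand), the type II receptor gene, had 15.3 and 7.00 RPKM in vehicle, 8.39 and 6.66 with PTH and 8.18 and 7.81 with YKL-05-093. One vehicle library was about as low as the treated ones and the other stood well above all of them. Its replicates in vehicle differed by 1.12 on the log2 scale, a gap exceeded by 4.66% of the tested genes. The log2 fold changes of -0.47 for PTH (95% interval -1.27 to 0.33, limma adjusted p = 0.660) and -0.37 for YKL-05-093 (limma adjusted p = 0.853) rest on that library: without vehicle replicate 1 they were 0.09 and 0.19, and without vehicle replicate 2 they were -1.03 and -0.93. A change in Bmpr2 could not be resolved with these libraries.

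Acvr1 (ENSMUSG00000026836, chr2:58388644-58567157, minus strand), which encodes the type I receptor ALK2, was the steadiest receptor gene in vehicle. Its levels were 2.91 and 2.70 RPKM in vehicle, 2.86 and 3.23 with PTH and 2.28 and 2.52 with YKL-05-093. The YKL-05-093 libraries were below the other 4, and vehicle and PTH overlapped. The log2 fold change was 0.11 for PTH (limma adjusted p = 0.835), -0.21 for YKL-05-093 (limma adjusted p = 0.830) and 0.33 for PTH against YKL-05-093 (limma adjusted p = 0.0881).

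Of the antagonists, only Grem1 was expressed well enough for the test. Grem1 (ENSMUSG00000074934, chr2:113746164-113758646, minus strand) had 5.58 and 4.84 RPKM in vehicle, 5.55 and 5.40 with PTH and 4.00 and 4.94 with YKL-05-093. PTH libraries lay inside the vehicle range, and the YKL-05-093 pair overlapped it. The log2 fold change was 0.07 for PTH (SE 0.16, limma adjusted p = 0.899) and -0.22 for YKL-05-093 (SE 0.18, limma adjusted p = 0.838). Between the treatments it was 0.29 (limma adjusted p = 0.0963), and the PTH libraries were above both YKL-05-093 libraries. The sign for PTH changed to -0.03 without vehicle replicate 2.

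Nog (ENSMUSG00000048616, chr11:89300638-89302332, minus strand) was close to the limit of detection, with 2 and 6 reads in vehicle, 9 and 3 with PTH and 5 and 4 with YKL-05-093. The ratio of its summed level to vehicle was 1.68 for PTH (95% exact binomial interval 0.630 to 4.73) and 1.25 for YKL-05-093 (0.427 to 3.72), so a change was not detectable at this depth. Chrdl1 (ENSMUSG00000031283, chromosome X, 143285674 to 143394262, minus strand) had 7 and 10 reads in vehicle, 2 and 1 with PTH and 1 and 3 with YKL-05-093. All 4 treated libraries were at or under the floor of 3 reads. The ratio was 0.197 for PTH (0.0371 to 0.682) and 0.261 for YKL-05-093 (0.0639 to 0.800). These intervals cover counting error only and leave out the spread between libraries.

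The genes whose profile over the 6 libraries was closest to that of Bmp2 were Lbh, Slc25a13 and Shisa2, among 11881 genes averaging 50 reads or more. Lbh had 22.3 and 20.2 RPKM in vehicle, 10.3 and 9.90 with PTH and 11.4 and 11.6 with YKL-05-093. Its mean absolute difference from Bmp2 in centred log2(RPKM + 0.1) was 0.04, as was that of Slc25a13, while that of Shisa2 was 0.05 and the median gene had 0.45. The measure uses the same 6 libraries as the comparisons and is a description of likeness only.

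Outside the 9 members, 58 further genes of the BMP pathway were counted, and 39 of them were tested. Of these, 1 was called higher (Tll1, described with the antagonists) and 1 lower with PTH, and 0 higher and 4 lower with YKL-05-093. For PTH against YKL-05-093, 3 were called higher, Tll1 among them, and 1 lower. Tll1 passed the filter on low values through the PTH libraries alone, so its calls are a description. The lists were drawn up with earlier results of these data known. Over all genes tested, 1.09% were called higher and 0.813% lower with PTH, and 0.393% and 0.274% with YKL-05-093. For PTH against YKL-05-093 these shares were 0.737% and 0.470%. The median log2 fold changes of the 39 were -0.18, -0.17 and 0.02, beside -0.03, -0.04 and 0.01 over all genes. Among 11 other ligands only Bmp8a passed the filter, and it had 0.786 and 0.402 RPKM in vehicle. Gdf7, the next most abundant, was at most 0.386 RPKM in any library. Of 8 other receptors and co-receptors, 5 were tested and 0 were called in any comparison. In this list limma gave 1 gene an unadjusted p under 0.05 in each comparison. The share of all genes was 13.3% with PTH, 8.66% with YKL-05-093 and 22.3% between the treatments. The most abundant were Eng, which encodes the co-receptor endoglin (8.42 and 7.45 RPKM in vehicle), and Rgmb, a BMP co-receptor gene (5.08 and 3.23 RPKM in vehicle).

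The second antagonist list held 16 genes for secreted BMP-binding proteins and for the proteases that release BMPs from them, of which 11 were tested. Fstl1 and Twsg1 were the most abundant of these, at 182 ± 25.4 and 47.1 ± 9.75 RPKM in vehicle, and neither was called in any comparison. Tll1, which encodes a tolloid-like protease that cleaves chordin, was 0.0466 and 0.109 RPKM in vehicle (4 and 15 reads), 2.33 and 2.36 with PTH (247 and 221 reads) and 0.301 and 0.177 with YKL-05-093 (30 and 18 reads). The PTH libraries stood far above the other 4. It reached the 0.5 RPKM of the filter through the PTH libraries alone, so it could enter the test only where it was high, and its calls with PTH and between the treatments are given as a description. The log2 difference of PTH from vehicle was 3.80, and it depends on the pseudocount over so few vehicle reads, with 4.84 at 0.01 RPKM and 1.63 at 1 RPKM. The difference of YKL-05-093 from vehicle was 0.93 and that of PTH from YKL-05-093 was 2.87.

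All 12 genes of the SMAD proteins and their modulators were tested, and 0 were called in any comparison. Limma gave 3 of them an unadjusted p under 0.05 with PTH (13.3% of all genes), 5 with YKL-05-093 (8.66%) and 6 between the treatments (22.3%). Smurf2, a ubiquitin ligase gene, and Smad5, a receptor-regulated SMAD gene, had the highest means over all 6 libraries, 36.5 and 26.0 RPKM. Skil, Smad6 and Smad7, named after their values were seen, encode inhibitors of SMAD signalling and passed the adjusted p alone between the treatments. This limit alone was passed by 10.0% of all genes. Of the 6 with an unadjusted p under 0.05, the other 3 were lower with PTH, namely Bambi (-0.37), Ski (-0.21) and Smad1 (-0.16). Skil, Smad6 and Smad7 were higher with PTH than with YKL-05-093, by 0.92, 0.69 and 0.91 on the log2 scale. In 1 fit of all 6 libraries none of these passed (limma adjusted p = 0.279, 0.0788 and 0.192), nor did any without the filter (0.0508, 0.102 and 0.193) or without PTH replicate 1 or 2 (0.134 to 0.359). Without YKL-05-093 replicate 1, Smad6 and Smad7 did not pass (0.0653 and 0.133), and with the variance trend on the mean value Smad7 did not (0.105).

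Of 11 targets of BMP-activated SMADs, 10 were tested. With PTH 1 was called lower and 0 higher, beside 0.813% and 1.09% of all genes. With YKL-05-093 4 were called lower and 0 higher, beside 0.274% and 0.393%. The median log2 fold changes of the 10 were -0.64 and -1.12, beside -0.03 and -0.04 over all genes. The target list was drawn up with earlier results of these data known, so these counts and medians are a description. Id1, Id2 and Id3 encode inhibitors of basic helix-loop-helix transcription factors. Id1 had 3.49 and 5.19 RPKM in vehicle, 3.89 and 4.22 with PTH and 1.04 and 0.787 with YKL-05-093. The PTH libraries lay within the vehicle range and the YKL-05-093 libraries well below it. Id1 fell by 2.11 on the log2 scale with YKL-05-093 (SE 0.27, limma adjusted p = 0.0304), and PTH against vehicle gave -0.07 (limma adjusted p = 0.935). Between the treatments Id1 was higher with PTH by 2.04 (limma adjusted p = 3.94e-06).

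Atoh8, a helix-loop-helix gene, had 7.07 and 6.59 RPKM in vehicle, 4.78 and 5.33 with PTH and 1.59 and 1.39 with YKL-05-093. It fell by 2.12 with YKL-05-093 (SE 0.18, limma adjusted p = 0.00883) and was higher with PTH than with YKL-05-093 by 1.69 (limma adjusted p = 9.33e-07). Id2 fell by 1.20 and Id3 by 1.68 with YKL-05-093 (limma adjusted p = 0.0318 and 0.0243). Id3, the most abundant target at 108 and 149.6 RPKM in vehicle, had 64.3 and 59.1 with PTH and 40.5 and 38.8 with YKL-05-093. Its change of -1.04 with PTH narrowly missed the limit (limma adjusted p = 0.0509). The 4 calls with YKL-05-093 were lost without the filter on low values (limma adjusted p between 0.137 and 0.200). They were also lost with the variance trend on the mean value (0.0569 to 0.104). Over all genes, limma called 0 without the filter and 6 with that trend, against 95 in the main setting. When 1 library was left out, the directions held, while only Id3 stayed called without vehicle replicate 1, only Atoh8 without YKL-05-093 replicate 1, and Atoh8 and Id1 without YKL-05-093 replicate 2.

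Sp7, which encodes the osteoblast transcription factor osterix and counts among both the targets and the osteoblast markers, had 46.0 and 45.5 RPKM in vehicle, 12.2 and 11.1 with PTH and 22.4 and 29.6 with YKL-05-093. Here the PTH libraries were the lowest, in contrast to Id1 and Atoh8. Sp7 fell by 1.97 with PTH (SE 0.16, limma adjusted p = 0.00190). It was -0.83 with YKL-05-093 (limma adjusted p = 0.159) and lower with PTH than with YKL-05-093, by -1.14 (limma adjusted p = 1.42e-06). None of the 4 calls between the treatments (Tll1, Id1, Atoh8 and Sp7) passed when PTH replicate 1 or 2 was left out, and without YKL-05-093 replicate 2 the value for Sp7 was -0.94. The call of Sp7 with PTH was lost without the filter on low values (limma adjusted p = 0.0558) and without PTH replicate 1 or 2 (limma adjusted p = 0.109 and 0.142).

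**Figure D4:**
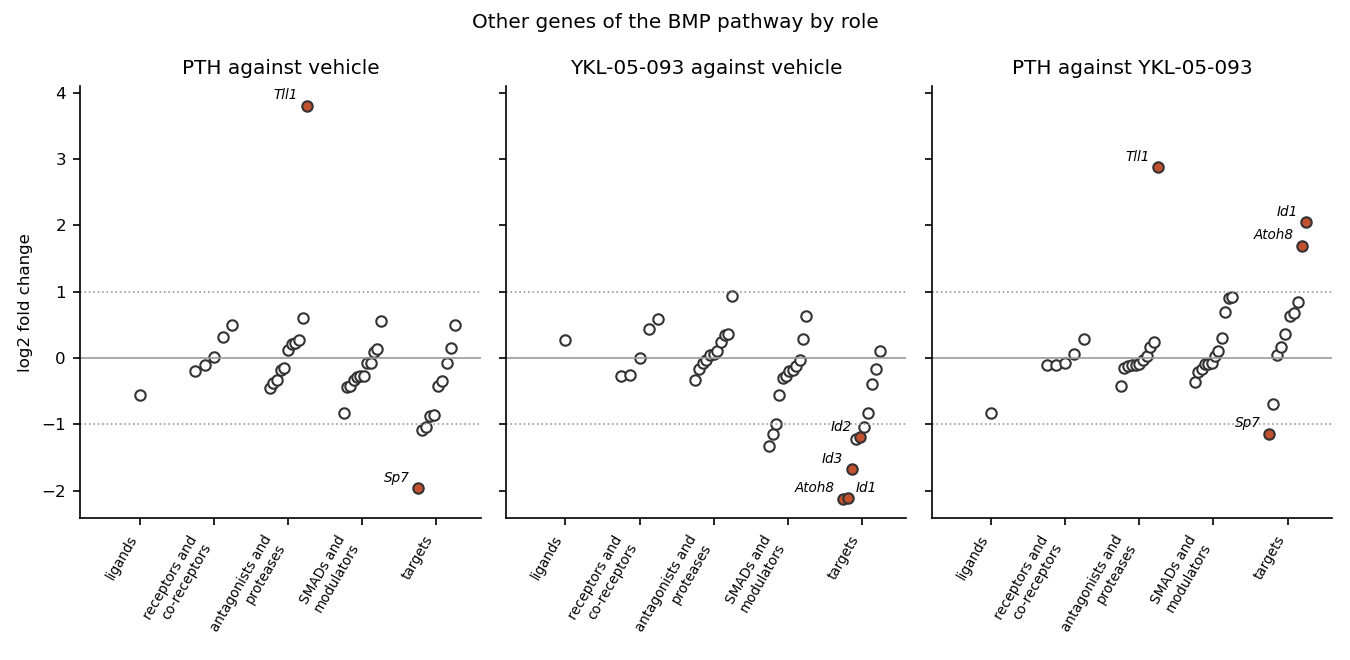
Log2 fold change (vertical axis) of the 39 tested other genes of the BMP pathway, grouped by role, in the 3 comparisons. Filled points were called (adjusted p under 0.05 and more than 2-fold), dotted lines mark 2-fold, and points are spread sideways only to separate them. Tll1 and Sp7 are called with PTH, and Atoh8, Id1, Id2 and Id3 with YKL-05-093. Tll1 entered the test through the PTH libraries alone.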

How the data were processed

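RNA of Ocy454 cells was analysed in 6 libraries, 2 for each of 3 conditions. The libraries were depleted of ribosomal RNA and directional. Per the labels and the methods of the study, the authors aligned reads with STAR to mm10, counted them with HTSeq on Ensembl genes and deposited RPKM, without a log or scaling between libraries. The tables of single libraries hold the same values as the series table.

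Reads were recovered from the steps of the RPKM values. limma 3.58.1 in R 4.3.3 was run on log2(RPKM + 0.1) for the 14264 genes that reached 0.5 RPKM in 2 or more libraries, separately for the 4 libraries of each comparison, with the prior variance following the mean log2 recovered reads. p-values were adjusted by Benjamini-Hochberg over all genes with a value. The design assumed these settings from an earlier analysis. The scripts were checked on simulated data.

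The members, the lists of other pathway genes (ligands, receptors, antagonists, SMADs, targets) and of markers (osteocyte, osteoblast, fat, cartilage, muscle, blood and endothelial cells), the settings and the tests were chosen with earlier results of these data known. Named are the 9 members, other pathway genes called in any comparison, the 2 most abundant genes of each list of pathway genes and the 3 genes most like each called member. Counting error was described by 95% exact binomial intervals and a floor of 3 reads. Positions are from GENCODE M21 (GRCm38). Alternatives were the pseudocount, the filter, the variance trend, median-ratio scaling, 1 fit of all libraries, a replicate block, voom on recovered reads, no limit on the fold and leaving out each library. Protein sequences were not analysed here, and 1 other pathway gene is not reported here.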

Additional observations from a re-analysis of the deposited data

How the results depend on the processing

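The directions of Bmp2, Bmp4 and Bmp6 in both comparisons with vehicle held in every alternative run, and of 294 values of the members under alternatives, 280 kept direction and call, 5 gained and 4 lost a call, and 5 turned. With PTH, 1 member was called and 2 other pathway genes, of which Tll1 passed the filter through the PTH libraries alone. A pseudocount of 1 RPKM left 0 members, and no filter on low values left 0 members and 0 others. 1 fit of all libraries called 4 others. With YKL-05-093, 0 members and 4 others were called, and no filter or the variance trend on the mean value left 0 others. Without the fold limit, 2 members (Bmp4 and Bmpr1a) and 12 others passed the adjusted p between the treatments, against 0 and 4 with it. The adjusted p alone was passed by 10.0% of all genes. Without the filter, limma called 0 of all genes for PTH and 0 for YKL-05-093, with 2341 and 1735 at an unadjusted p under 0.05.

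Leaving out 1 library gave 0 to 2 members and 1 to 4 others for PTH, 0 to 2 and 1 to 7 for YKL-05-093, and 0 to 0 and 0 to 4 between the treatments. The fit then assumes that the lone library varies like the other group. The 2 members were Bmp2 and Bmpr2 for PTH, and Bmp2 and Bmp4 for YKL-05-093 (log2 -1.05 and -1.04), in both cases without vehicle replicate 2. The most others came without either vehicle library for PTH and without vehicle replicate 2 for YKL-05-093, the fewest without either PTH library, vehicle replicate 1 or YKL-05-093 replicate 1. The 0 others between the treatments came without PTH replicate 1 or 2, where limma called 0 of all genes, with 2132 and 2021 at an unadjusted p under 0.05. Of the 39 other pathway genes tested, 11 turned for PTH, 11 for YKL-05-093 and 10 between the treatments. Among the members and the pathway genes called in a comparison, log2 values that turned ranged from -1.03 to 0.093 (Bmpr2), -0.027 to 0.17 (Grem1) and -0.35 to 0.21 (Id1) for PTH, from -0.35 to 0.24 (Bmpr1a) and -0.93 to 0.19 (Bmpr2) for YKL-05-093, and from -0.26 to 0.068 (Bmpr2) between the treatments. Where not stated, the cause was not tested.

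Whether the replicate numbers pair the libraries is not known. Deviations of same-numbered libraries had correlations of -0.03, -0.05 and -0.05 over all tested genes. A replicate block raised the genes called by limma from 272 to 441 for PTH, 95 to 215 for YKL-05-093 and 172 to 196 between the treatments. With the replicate block, the members called stayed at 1, 0 and 0, the other pathway genes went to 4 for PTH and 8 for YKL-05-093 and stayed at 4 between the treatments, and the adjusted p of Bmp2 and Bmp4 with YKL-05-093 from limma was 0.00642 and 0.00766, both under 2-fold. Depth limits Nog and Chrdl1, where 3 reads correspond to between 0.0137 and 0.0892 RPKM, and Bmp6 with 22 to 69 reads.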
